A study of Mus musculus with 16 samples.

Results

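The stroma examined here was the mCherry- fraction of bone marrow from mice carrying leukemia, in 8 RNA-seq libraries of the 16 in the series: 4 from WT hosts (C57BL/6J) and 4 from IL-6 KO hosts (C57BL/6J Il-6-/-). All hosts were 6 to 8 weeks old, of either sex, and received 500000 BCR-ABL+, Arf-/- B-ALL cells marked with mCherry through the tail vein. Marrow was spun out of femur and tibia 8 days later, before any drug, its red cells were lysed, and live mCherry- single cells were sorted. The other 8 libraries are the mCherry+ leukemic cells (tumor) of the same kinds of host and are used below only for values set beside those of stroma. The members were the 12202 of 13344 genes in the stroma table whose normalized counts averaged more than 10, and the question was which lineages and programs of the non-leukemic marrow differed with the genotype of the host.

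Interleukin-6 is a cytokine made by stromal and myeloid cells of the marrow, among others. It acts through the receptor chain IL-6R and the shared chain gp130, which activate JAK kinases and the transcription factor STAT3, and STAT3 induces its own inhibitor SOCS3 and genes of acute inflammation and survival. In marrow, IL-6 is known as a signal of emergency granulopoiesis, the raised output of neutrophils during infection. IL-6 KO hosts lack the gene in all their own cells, and both kinds of host received the same leukemic cells. Il6, the gene deleted, was not analysed here, so the labels could not be checked by it.

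Despite its name, the mCherry- fraction was not a mesenchymal sort, and its most abundant lineage transcripts were those of blood cells. Per kilobase of transcript, Hbb-bs (beta-globin) had a mean normalized count of 97400 in WT and 142000 in IL-6 KO, S100a9 (a calprotectin subunit of neutrophils) of 4180 in WT and 6610 in IL-6 KO, and Ltf (lactoferrin) of 1640 in WT and 4760 in IL-6 KO. On the same scale the collagen gene Col1a1 had 36.6 in WT and 77.9 in IL-6 KO. Of 25 mesenchymal and endothelial genes, 11 were tested, and Cxcl12, Lepr and Adipoq, which define the stromal cells of marrow, were not analysed here. Of 28 T and NK cell genes, 7 were tested, and the CD3 genes, Cd8a and Trac were likewise not analysed. B cell precursor genes that mark this leukemia stood much lower in the order of genes in stroma than in tumor: by level per kilobase, Vpreb1 was at percentile 45.4 in stroma and 99.4 in tumor, and Igll1 at 33.9 and 98.7. Y-linked genes (Ddx3y, Uty, Kdm5d, Eif2s3y) were present in all 8 libraries. Their mean log2 value was 6.85, 7.42, 7.11 and 7.33 in WT and 6.53, 7.12, 6.70 and 7.62 in IL-6 KO libraries. The paper describes the injected leukemic cells as male. How much of these counts came from leukemic cells was not tested, and the sex of each host was not read from them. Xist and Tsix were not analysed here.

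A few non-coding RNAs held most of the normalized counts, and their shares differed between libraries. Rn7s1, the 7SL RNA of the signal recognition particle, held 19.2%, 22.8%, 37.6% and 50.1% in WT and 78.8%, 71.5%, 79.0% and 10.9% in IL-6 KO libraries. The ribosomal RNA CT010467.1 held 61.5% in IL-6 KO replicate 4 and at most 0.0387% in each of the other 7 libraries. The rRNA-derived Gm26917 held 20.3%, 26.1%, 25.6% and 21.5% in WT and 6.63%, 8.7%, 7.51% and 6.8% in IL-6 KO libraries. Mitochondrially encoded RNAs together held 3.5%, 3.12%, 2.14% and 2.63% in WT and 0.157%, 0.306%, 0.119% and 1.76% in IL-6 KO libraries. Nuclear protein-coding genes, Lars2 among them with 6.66% in IL-6 KO replicate 4 and at most 1.89% in each of the other 7 libraries, held between 20.1% and 37.4% in WT and between 7.95% and 15.7% in IL-6 KO libraries, so the genotypes differed in composition before any single gene was considered. Rn7s1 itself did not pass the test, with a log2 fold change of 2.36 (SE 1.39, adjusted p = 0.617). The part that these shares play in the differences below was not tested.

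**Figure D1:**
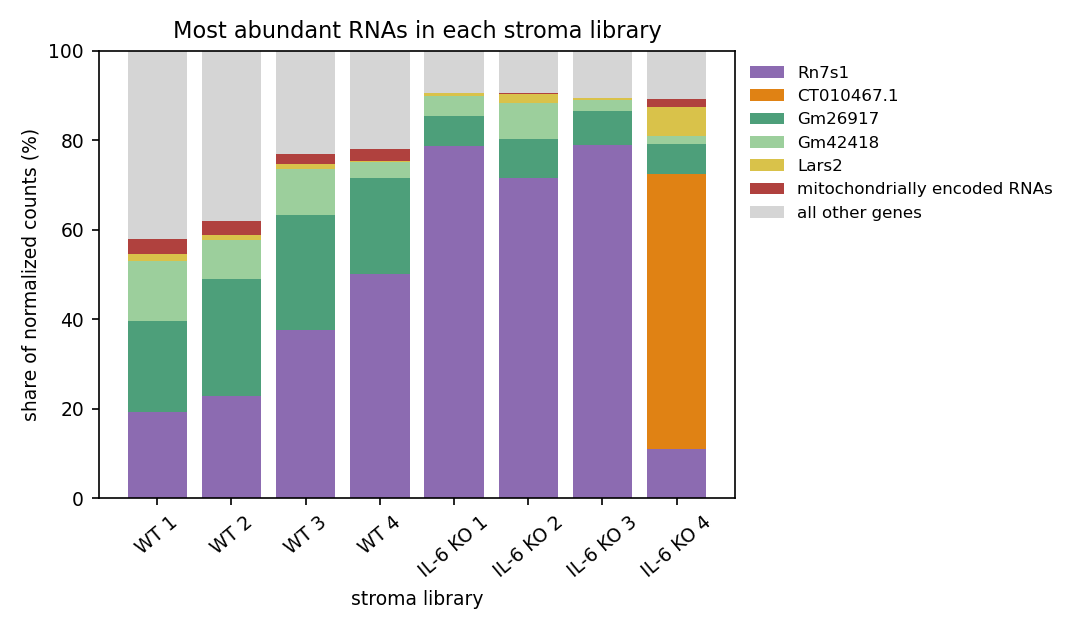
Stacked bars give the share of all normalized counts (%) that the most abundant RNAs held in each of the 8 stroma libraries. Rn7s1 took 71.5% to 79.0% in IL-6 KO replicates 1 to 3, CT010467.1 took 61.5% in IL-6 KO replicate 4, and the mitochondrially encoded RNAs took 0.119% to 0.306% in IL-6 KO replicates 1 to 3.

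Only 1 gene passed an adjusted p of 0.05 in stroma (limma, Benjamini-Hochberg over 12202 genes), which is 0.0082% of those tested. At an unadjusted p under 0.05 there were 1117 genes (9.15%), 482 of them higher in IL-6 KO (3.95%) and 635 lower (5.2%). The genotypes did not overlap for 706 genes (5.79%), of which 310 were higher in IL-6 KO (2.54%) and 396 lower (3.25%), meaning that every IL-6 KO library lay above, or below, every WT library. Leaving out 1 library moved these counts, to 742 genes at an unadjusted p under 0.05 without WT replicate 2 and to 1632 without overlap without IL-6 KO replicate 3. These are the backgrounds against which each list of genes is read below. Over all genes tested the median log2 fold change (IL-6 KO minus WT, on log2 of normalized count + 1) was -0.01, with 49.4% of genes higher in IL-6 KO. Because no gene but Gm11336 passed the adjusted test, every other difference below is given as a value that did not pass it. In bulk RNA, fewer cells of a type and less RNA per cell cannot be told apart.

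The spread between libraries was wide, and it did not follow genotype alone. The first principal component (23.2% of variance) placed IL-6 KO replicates 1 and 3 at -120.4 and -71.1 and IL-6 KO replicate 4 at 76.5, with the WT libraries between -14.9 and 47.5. On the second component (22.2%), IL-6 KO replicates 1 and 4 stood at 94.7 and 82.5 and IL-6 KO replicate 3 and WT replicate 1 at -68.4 and -85.4. Genes of the neutrophil lists loaded toward the positive end of that second component (median at percentile 89.1 of all genes) and genes of the erythroid lists toward its negative end (percentile 13). The median residual SD of a gene was 0.857 on the log2 scale, against 0.212 in tumor.

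Gm11336, the gene that passed, fell almost to nothing in IL-6 KO stroma. It is annotated as a histone H2A pseudogene on chromosome 13 (chr13:23746166-23746499, minus strand, GRCm38). Normalized counts were 1185, 2058, 1325 and 1105 in WT and 0, 1.93, 10.3 and 0 in IL-6 KO libraries. The log2 fold change was -9.16 (SE 0.75, limma adjusted p = 2.53e-04). In tumor the same pseudogene had normalized counts of 162, 443, 292 and 189 in WT and 118, 201, 139 and 142 in IL-6 KO libraries (log2 fold change -0.77, SE 0.30, adjusted p = 0.102). Its transcript shares long stretches with genuine H2A genes, of which 11 in the stroma table matched it with at least 97% identity over at least 150 bases, so salmon could divide reads among them. The start of the Gm11336 transcript is shown with the aligned part of its closest copy, Hist1h2ap (GENCODE vM21), because the differences between them are what assigns a read to one or the other. Capitals mark bases that differ or have no partner in the other sequence, and the pseudogene lacks 58 bases of Hist1h2ap in 2 stretches.
Gm11336: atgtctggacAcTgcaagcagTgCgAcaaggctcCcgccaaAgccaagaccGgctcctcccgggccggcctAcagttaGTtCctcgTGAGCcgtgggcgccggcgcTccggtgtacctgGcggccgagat
Hist1h2ap: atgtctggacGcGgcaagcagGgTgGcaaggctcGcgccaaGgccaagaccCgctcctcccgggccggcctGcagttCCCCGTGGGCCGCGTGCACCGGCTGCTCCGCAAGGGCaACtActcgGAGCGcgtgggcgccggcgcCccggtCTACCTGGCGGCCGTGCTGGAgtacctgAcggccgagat

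Summed over the 11 copies without Gm11336, normalized counts were 20217, 27262, 17815 and 29554 in WT and 6972, 17476, 20350 and 11626 in IL-6 KO libraries, so the copies did not separate the genotypes, with IL-6 KO replicate 3 above 2 WT libraries. With Gm11336 added the sums were 21402, 29319.6, 19140.3 and 30659.5 in WT and 6972, 17478, 20360.4 and 11626 in IL-6 KO libraries.

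Neutrophil genes were higher in 3 of the 4 IL-6 KO libraries. Neutrophils load granules in order as they mature, with primary granules of proteases and myeloperoxidase made by precursors, and secondary and tertiary granules of lactoferrin, lysozyme and gelatinase made later. Of 18 secondary and tertiary granule genes, 17 were higher in IL-6 KO stroma, with a median log2 fold change of 0.69. Of these 6 were higher at an unadjusted p under 0.05 (background 3.95%) and 2 did not overlap (background 2.54%). Of 26 genes of mature neutrophils, 21 were higher (median 0.72), 4 at an unadjusted p under 0.05. Of 14 primary granule and precursor genes, 10 were higher, but their median was 0.18. Over the 3 lists together (58 genes), the mean log2 value was 6.08, 6.78, 6.91 and 7.26 in WT and 7.36, 7.70, 6.14 and 8.33 in IL-6 KO libraries. IL-6 KO replicates 1, 2 and 4 lay above every WT library, and IL-6 KO replicate 3 lay at the low end beside WT replicate 1. The median over the 58 genes was 0.52, 0.95 without IL-6 KO replicate 3 and 0.27 without IL-6 KO replicate 4, and that of the primary granule list was -0.24 without IL-6 KO replicate 4.

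Among the granule proteins, Mmp9, the gelatinase of tertiary granules, had normalized counts of 318, 712, 692 and 833 in WT and 1537, 1552, 1018 and 1713 in IL-6 KO libraries. The log2 fold change was 1.25 (SE 0.35, limma adjusted p = 0.364), and the genotypes did not overlap. Ltf, the lactoferrin of secondary granules, had normalized counts of 2780.1, 4283, 4486 and 6399 in WT and 18709, 18524, 2711 and 12261 in IL-6 KO libraries. IL-6 KO replicate 3 fell below every WT library there, while the other three were far above (log2 fold change 1.27, SE 0.55, adjusted p = 0.518). Ngp, neutrophilic granule protein, had normalized counts of 1249, 1855, 1901 and 2166 in WT and 4753, 4051, 1348 and 5333 in IL-6 KO libraries (log2 fold change 0.96, SE 0.42, adjusted p = 0.518), with IL-6 KO replicate 3 inside the WT range. Retnlg, a resistin-like protein of neutrophils, had normalized counts of 150.2, 224, 163 and 333 in WT and 464, 555, 339.8 and 382 in IL-6 KO libraries and did not overlap (log2 fold change 1.04, SE 0.36, adjusted p = 0.44). Camp, the cathelicidin precursor, had a log2 fold change of 0.63 (SE 0.37, adjusted p = 0.615), and Lyz2, lysozyme, had a log2 fold change of 0.86 (SE 0.37, adjusted p = 0.52).

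Of the mature neutrophil list, Hdc, the enzyme that makes histamine, had normalized counts of 114, 199, 176 and 307 in WT and 348, 603, 452 and 566 in IL-6 KO libraries. Its log2 fold change was 1.36 (SE 0.38, limma adjusted p = 0.347), without overlap. G0s2, a regulator of lipolysis abundant in neutrophils, had normalized counts of 13.6, 109.8, 49.4 and 139 in WT and 346, 398, 173 and 261 in IL-6 KO libraries (log2 fold change 2.28, SE 0.65, adjusted p = 0.368), also without overlap. Slpi, an inhibitor of neutrophil elastase, had normalized counts of 11.6, 71.3, 75.7 and 102 in WT and 353, 277, 98.6 and 372 in IL-6 KO libraries (log2 fold change 2.25, SE 0.68, adjusted p = 0.406). Neither calprotectin subunit stood out: S100a9 had a log2 fold change of 0.55 (SE 0.40, adjusted p = 0.696) and S100a8 a log2 fold change of -0.02 (SE 0.37, adjusted p = 0.993). Csf3r, the receptor for granulocyte colony-stimulating factor, had a log2 fold change of 0.06 (SE 0.50, adjusted p = 0.988). Of the primary granule genes, Mpo (myeloperoxidase) had a log2 fold change of 0.29 (SE 0.54, adjusted p = 0.9) and Elane (neutrophil elastase) a log2 fold change of -0.31 (SE 1.14, adjusted p = 0.958). Ms4a3, a marker of granulocyte and monocyte precursors, was low throughout, with normalized counts of 0.827, 2.03, 3.18 and 2.45 in WT and 27.7, 5.54, 12.9 and 66.1 in IL-6 KO libraries (log2 fold change 2.77, SE 1.10, adjusted p = 0.48). Its means were 2.12 in WT and 28.1 in IL-6 KO, so only the IL-6 KO libraries carried it past the filter on the mean count. Being this low in WT, Ms4a3 could be tested only if it was higher in IL-6 KO, so the filter fixed its direction. In tumor libraries, which were sorted for mCherry, the same secondary and tertiary granule list had 15 of 18 genes higher at an adjusted p under 0.05 and a median of 1.48. Over all 14493 genes tested in tumor, 19.8% passed that threshold, 10.6% higher and 9.16% lower.

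**Figure D2:**
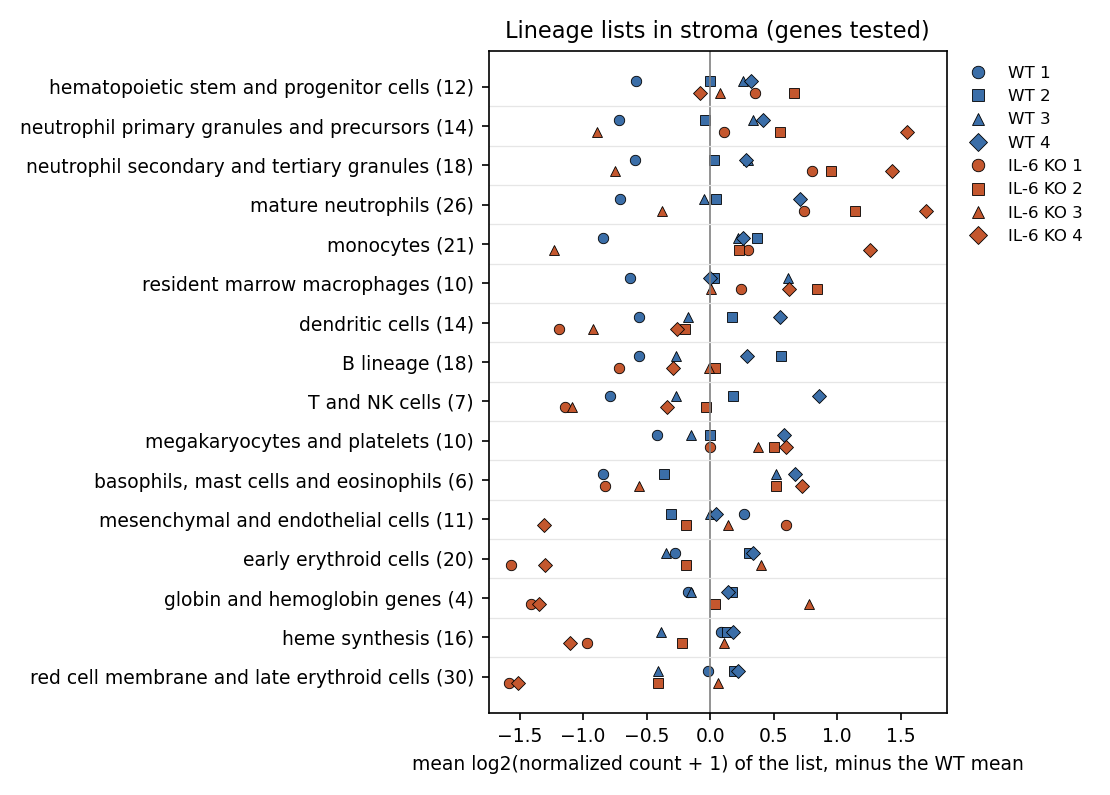
Each point is 1 stroma library's mean of log2(normalized count + 1) over the tested genes of a lineage list (number in brackets), minus the mean of the 4 WT libraries. IL-6 KO replicates 1 and 4 lay lowest on all 4 erythroid lists, and IL-6 KO replicate 3 lay below all WT libraries on the primary and secondary granule lists.

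Other leukocyte lists differed less or with few genes. Of 21 monocyte genes, 14 were higher in IL-6 KO (median 0.24), 1 of them at an unadjusted p under 0.05 (background 3.95%). That gene was Cx3cr1, the fractalkine receptor, with normalized counts of 39.9, 35.7, 23.7 and 38.5 in WT and 90.9, 81.4, 42.9 and 149 in IL-6 KO libraries (log2 fold change 1.27, SE 0.55, adjusted p = 0.515). Without IL-6 KO replicate 4 the monocyte median was -0.14. The monocyte receptor gene Csf1r had a log2 fold change of 0.66 (SE 0.50, adjusted p = 0.711). Resident macrophages were represented by 10 genes with a median of 1.01, 7 of them higher, but only Slc11a1, a metal transporter of phagosomes, had an unadjusted p under 0.05, with normalized counts of 6.34, 26.3, 292 and 178 in WT and 438, 204, 253 and 160.4 in IL-6 KO libraries (log2 fold change 2.11, SE 0.95, adjusted p = 0.536). Without IL-6 KO replicate 2 the macrophage median was 0.36. Members of this list went both ways: Vcam1 and Axl had folds of 2.09 and 2.09 (IL-6 KO over WT) and Cd5l a fold of 0.248. Of the macrophage genes listed, C1qa, Cd163 and Mrc1 averaged 10 or less, and C1qb, C1qc, Mertk, Timd4 and Vsig4 were not analysed here. Dendritic cell genes had a median of -0.82, with 9 of 14 lower, and of -0.19 without IL-6 KO replicate 1. Siglech, a surface lectin of plasmacytoid dendritic cells, had normalized counts of 62.5, 53.4, 55 and 82.1 in WT and 42, 14.5, 3.48 and 20.5 in IL-6 KO libraries and did not overlap (log2 fold change -1.99, SE 0.74, adjusted p = 0.461).

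More lymphoid genes were lower than higher in IL-6 KO stroma, but only 1 of each list was lower at an unadjusted p under 0.05 (background 5.2%). Of 18 B lineage genes, 12 were lower (median -0.35, but -0.09 without IL-6 KO replicate 1 and -0.56 without IL-6 KO replicate 3). The other 6 were higher, among them Cd79b with a fold of 1.45 (IL-6 KO over WT). Rag1, the recombinase that assembles antigen receptor genes, had normalized counts of 168, 220.3, 125 and 164 in WT and 50.4, 124, 32.7 and 103 in IL-6 KO libraries, without overlap (log2 fold change -1.28, SE 0.50, adjusted p = 0.476). Of 7 T and NK cell genes, 6 were lower (median -0.71, -0.13 without WT replicate 4 and -1.21 without WT replicate 1). Cd4, the coreceptor of helper T cells, had only normalized counts of 12.8, 13.4, 6.49 and 44.8 in WT and 3.48, 1.59, 0 and 3.85 in IL-6 KO libraries (log2 fold change -2.56, SE 1.16, adjusted p = 0.537). With means of 19.4 in WT and 2.23 in IL-6 KO, Cd4 passed the filter on the mean count only through WT libraries. A gene this low in IL-6 KO could be tested only if it was higher in WT, so the filter fixed the direction of Cd4. Megakaryocyte and platelet genes had a median of 0.07 (between -0.15 and 0.19 with 1 library left out), although Itga2b, the platelet integrin subunit CD41, had normalized counts of 28.2, 72.6, 198 and 108 in WT and 326, 306, 807 and 226 in IL-6 KO libraries and did not overlap (log2 fold change 2.16, SE 0.59, adjusted p = 0.324). The 11 mesenchymal and endothelial genes tested had no common direction, with 5 higher and 6 lower (median -0.07, between -0.63 and 0.37 with 1 library left out). Sparc, a matrix protein, had a fold of 1.56 (IL-6 KO over WT). Among the lower members, Kitl, which encodes stem cell factor, had normalized counts of 90.5, 37, 81.5 and 41.7 in WT and 29.8, 23.2, 31.4 and 5.73 in IL-6 KO libraries (log2 fold change -1.56, SE 0.70, adjusted p = 0.535). Col1a2, type I collagen, had a log2 fold change of -0.51 (SE 0.59, adjusted p = 0.819). The 12 stem and progenitor genes tested had a median of -0.09, and the 6 genes of basophils, mast cells and eosinophils of 0.32, which was -0.14 without IL-6 KO replicate 2 and 0.74 without IL-6 KO replicate 3.

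Erythroid genes were lower in IL-6 KO stroma as a group. Red cell precursors switch on GATA1 and KLF1 first, then the genes of heme synthesis and globin, and finally those of the membrane skeleton. All 30 genes of the red cell membrane and late erythroid list were lower in IL-6 KO (median -0.85), 9 at an unadjusted p under 0.05 (background 5.2%) and 4 without overlap (background 3.25%). Of 20 early erythroid genes, 18 were lower (median -0.73), 6 of them at an unadjusted p under 0.05 and 2 without overlap. Of 16 heme synthesis genes, 13 were lower (median -0.52), 2 at an unadjusted p under 0.05. Of 4 globin genes, 3 were lower (median -0.59), none at an unadjusted p under 0.05. Over the 4 lists together (70 genes), the mean log2 value was 10.56, 10.85, 10.27 and 10.89 in WT and 9.22, 10.37, 10.85 and 9.29 in IL-6 KO libraries. Only IL-6 KO replicates 1 and 4 lay below every WT library, and IL-6 KO replicate 3 lay with the highest WT libraries. The median over the 70 genes was -0.73, -0.47 without IL-6 KO replicate 1 and -1.08 without IL-6 KO replicate 3. In tumor 33 of the 55 erythroid genes tested were higher in IL-6 KO (median 0.08). At an adjusted p under 0.05, 4 were higher and 6 lower there, near the shares over all genes tested in tumor (10.6% and 9.16%).

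**Figure D3:**
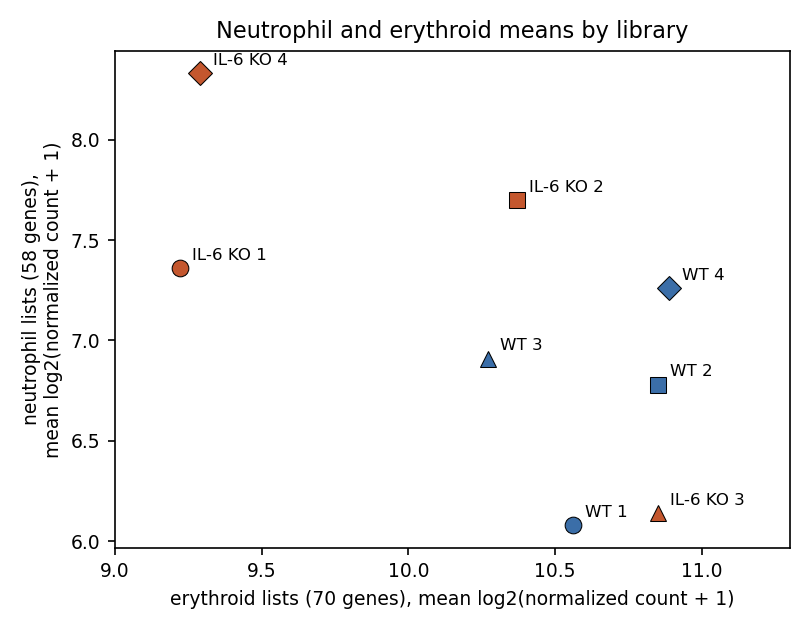
Each point is 1 stroma library, with its mean log2(normalized count + 1) over the 70 erythroid genes on the horizontal axis and over the 58 neutrophil genes on the vertical axis. IL-6 KO replicate 4 combined the highest neutrophil mean (8.33) with an erythroid mean of 9.29, and IL-6 KO replicate 3 (6.14 and 10.85) lay among the WT libraries.

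Among early erythroid genes, Zfpm1, the GATA1 cofactor FOG1, had normalized counts of 3849, 2667, 1815 and 1941 in WT and 735, 990.1, 1048 and 1152 in IL-6 KO libraries. This gave a log2 fold change of -1.34 (SE 0.32, limma adjusted p = 0.302), without overlap. Zfpm1 was not confined to erythroid cells, as its normalized counts in tumor lay between 4067 and 9074. Rhag, the Rh-associated glycoprotein, had a log2 fold change of -0.73 (SE 0.32, adjusted p = 0.527) and also did not overlap. The factors that head the program had smaller fold changes: Gata1 had a log2 fold change of -0.30 (SE 0.47, adjusted p = 0.878) and Klf1 a log2 fold change of -0.29 (SE 0.38, adjusted p = 0.843). Tal1, a partner of GATA1, had normalized counts of 1703, 1736, 1363 and 2328 in WT and 271, 1154, 1706 and 769 in IL-6 KO libraries (log2 fold change -1.13, SE 0.48, adjusted p = 0.507). IL-6 KO replicate 3 was within the WT range for Tal1, and IL-6 KO replicate 1 was far below it.

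Of the genes that build the membrane skeleton, Epb41, protein 4.1R, had normalized counts of 5246, 7713, 6966 and 9615 in WT and 2442, 3391, 3179 and 2018 in IL-6 KO libraries. This gave a log2 fold change of -1.42 (SE 0.30, limma adjusted p = 0.298). Here every IL-6 KO library, replicate 3 included, was below every WT library. Epb41 was not confined to erythroid cells either. Its normalized counts in tumor lay between 4405 and 5937, against 6.69 to 75.9 there for the erythroid gene Alas2. Slc4a1, the anion exchanger band 3, had normalized counts of 20024, 22606, 22598 and 33923 in WT and 15531, 31293, 49594 and 8472 in IL-6 KO libraries (log2 fold change -0.19, SE 0.49, adjusted p = 0.933), with IL-6 KO replicate 3 above and IL-6 KO replicates 1 and 4 below the WT range. Slc2a4, a glucose transporter, had normalized counts of 268, 260.4, 294 and 380.3 in WT and 22.9, 119, 130.1 and 115 in IL-6 KO libraries (log2 fold change -1.88, SE 0.54, adjusted p = 0.37), and Fam210b, a mitochondrial protein of erythroid cells, had a log2 fold change of -1.22 (SE 0.36, adjusted p = 0.392), both without overlap. In heme synthesis, Fech, which inserts the iron, had normalized counts of 3993, 4157, 2766 and 3955 in WT and 1377, 2447, 2704 and 1859 in IL-6 KO libraries (log2 fold change -0.86, SE 0.30, adjusted p = 0.44), while Alas2, the first enzyme of the path in red cells, had a log2 fold change of -0.73 (SE 0.43, adjusted p = 0.614). Hbb-bs had normalized counts of 65078, 66609.5, 62432 and 50651 in WT and 28538, 108495, 183114 and 36253 in IL-6 KO libraries (log2 fold change 0.15, SE 0.56, adjusted p = 0.961), with IL-6 KO replicates on both sides of the WT range. Reads of Hba-a1, Hba-a2, Hbb-bs and Hbb-bt could be split between near-identical copies. Red cells had been lysed in every sample before the sort. The letters AGATAA, a core of the GATA site, stood on either strand in the 250 bases before a start of 12 of the 52 erythroid genes with a RefSeq promoter (23.1%, against 11.4% of all genes in the reference), and none of these 12 was without overlap.

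Genes of dividing cells were lower alongside. Of 69 mitosis and G2/M genes, 56 were lower in IL-6 KO (median -0.55). At an unadjusted p under 0.05, 24 were lower (background 5.2%) and 1 higher (background 3.95%), and 8 were lower without overlap (background 3.25%). The mean log2 value of the mitosis list was 9.63, 9.78, 9.18 and 9.62 in WT and 8.76, 9.22, 9.56 and 8.75 in IL-6 KO libraries. IL-6 KO replicates 1 and 4 were again the lowest. With any 1 library left out the median stayed between -0.74 and -0.39. In tumor the mitosis list went the other way, with 43 of 69 genes higher in IL-6 KO and a median of 0.08. There 18 genes were higher and 4 lower at an adjusted p under 0.05, against 10.6% and 9.16% of all genes tested in tumor. Of 38 replication-dependent histone genes, 35 were lower in stroma (median -0.66, and -0.42 without IL-6 KO replicate 1), 11 at an unadjusted p under 0.05 and 8 without overlap. In tumor 34 of the 38 were higher (median 0.23), 16 at an adjusted p under 0.05, and none was lower at that threshold. DNA replication and E2F target genes had a median of -0.23 in stroma with 35 of 50 lower. Of these 50, 3 in each direction had an unadjusted p under 0.05 (12.0% of the list, near the 9.15% of all genes). That median was -0.08 without IL-6 KO replicate 1 and -0.45 without IL-6 KO replicate 3, and in tumor it was 0.05, with 13 genes higher and 5 lower at an adjusted p under 0.05. The differences between stroma and tumor in these lists were not tested.

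Hmmr, a spindle protein, had normalized counts of 894, 904, 414 and 722 in WT and 139, 235, 369.5 and 309 in IL-6 KO libraries (log2 fold change -1.50, SE 0.40, adjusted p = 0.324), without overlap. Mki67, which coats mitotic chromosomes and marks cycling cells, had normalized counts of 19184, 22629, 13602 and 20808 in WT and 6729, 9025, 12313 and 9929 in IL-6 KO libraries (log2 fold change -1.01, SE 0.32, adjusted p = 0.421), also without overlap. Smc4, a condensin subunit, had normalized counts of 1891, 1853, 1721 and 1865 in WT and 612, 999, 1315 and 803 in IL-6 KO libraries (log2 fold change -1.03, SE 0.30, adjusted p = 0.383). Top2a, the topoisomerase of dividing cells, had a log2 fold change of -0.87 (SE 0.31, adjusted p = 0.44) with 1 IL-6 KO library inside the WT range, and cyclin B1 (Ccnb1) had a log2 fold change of -0.78 (SE 0.39, adjusted p = 0.57). Hist1h2ae, Hist1h2bk and Hist1h3g, core histones with near-identical copies, had a log2 fold change of -1.54, a log2 fold change of -1.25 and a log2 fold change of -1.08, each without overlap. Against the direction of its list, the helicase subunit gene Mcm2 had normalized counts of 262, 1047, 251 and 501 in WT and 3674, 3541, 1840.2 and 308 in IL-6 KO libraries (log2 fold change 1.93, SE 0.71, adjusted p = 0.458), whereas Mcm3 and Mcm4, subunits of the same helicase, had a log2 fold change of -0.26 and a log2 fold change of -0.50. Libraries low in mitosis genes were also low in erythroid genes, and the part of one in the other was not tested.

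Promoters of the mitosis list were read for the CCAAT box, the site of NF-Y, and for TTTGAA, the cell cycle homology region, on both strands of the 250 bases before RefSeq transcription starts (GRCm38.p6). Of 56 genes with a promoter sequence, 40 held CCAAT (71.4%, against 37.5% of 27025 genes in the reference) and 21 held TTTGAA (37.5%, against 18.3%). The median log2 fold change was -0.53 with CCAAT and -0.59 without. Of the genes that held CCAAT and did not overlap, Hmmr and Mki67 had the smallest p, and their promoters are shown because each holds several copies, with CCAAT or its reverse complement ATTGG, and TTTGAA or TTCAAA, in capitals. The Hmmr bases are chr11:40733438-40733687 and the Mki67 bases chr7:135716380-135716629, both read on the minus strand.
Hmmr: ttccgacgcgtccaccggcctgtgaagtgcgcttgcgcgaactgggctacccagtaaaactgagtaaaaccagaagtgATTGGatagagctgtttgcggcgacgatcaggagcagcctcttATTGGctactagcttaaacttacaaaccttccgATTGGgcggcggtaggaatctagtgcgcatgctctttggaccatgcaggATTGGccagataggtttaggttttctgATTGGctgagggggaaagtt
Mki67: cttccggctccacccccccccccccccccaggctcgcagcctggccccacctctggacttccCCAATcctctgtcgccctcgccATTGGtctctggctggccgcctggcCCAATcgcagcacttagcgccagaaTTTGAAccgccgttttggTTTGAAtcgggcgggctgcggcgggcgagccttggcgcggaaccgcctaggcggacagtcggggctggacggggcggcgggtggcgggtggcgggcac

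Interferon-stimulated genes were lower in IL-6 KO stroma, and here IL-6 KO replicate 3 lay low with replicates 1 and 2. These genes answer type I interferon through the factor ISGF3, which binds the interferon-stimulated response element (ISRE), and they encode sensors and effectors against viruses. Of 44 tested, 33 were lower (median -0.71), 11 of them at an unadjusted p under 0.05 (background 5.2%) and 8 without overlap (background 3.25%). None was higher at that p. The mean log2 value was 6.95, 6.90, 7.51 and 7.36 in WT and 6.39, 6.54, 6.44 and 6.97 in IL-6 KO libraries. IL-6 KO replicates 1, 2 and 3 lay below every WT library, and IL-6 KO replicate 4 lay just above WT replicates 1 and 2. With any 1 library left out, the median stayed between -0.74 and -0.52.

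Ifit1, which binds viral RNA caps, had normalized counts of 95.7, 101, 147 and 137 in WT and 8.24, 12.8, 37.2 and 31.8 in IL-6 KO libraries. Its log2 fold change was -2.57 (SE 0.60, limma adjusted p = 0.302), without overlap. Oas3, a synthetase that activates RNase L, had normalized counts of 992, 1114, 1437 and 1215 in WT and 288, 579, 809 and 655 in IL-6 KO libraries (log2 fold change -1.11, SE 0.35, adjusted p = 0.431), and Eif2ak2, the kinase PKR, had normalized counts of 329, 288, 221 and 344 in WT and 56.7, 79.4, 210.0 and 157 in IL-6 KO libraries (log2 fold change -1.39, SE 0.46, adjusted p = 0.432), both without overlap. Isg15, a ubiquitin-like modifier, had normalized counts of 368, 414, 494 and 481 in WT and 177, 273, 497 and 132 in IL-6 KO libraries (log2 fold change -0.88, SE 0.42, adjusted p = 0.554), with IL-6 KO replicate 3 above all WT libraries. Parp14 had a log2 fold change of -1.29 (SE 0.42, adjusted p = 0.432), and Ifit2, a relative of Ifit1, had a log2 fold change of -0.49 (SE 0.76, adjusted p = 0.877). In tumor 14 of 49 genes of the list were lower at an adjusted p under 0.05, none was higher, and the median was -0.38. Ifit1 there had a log2 fold change of -0.21 (SE 0.66, adjusted p = 0.85).

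An ISRE core, read as GAAA, any 2 bases and GAAA again on either strand, stood in the 250 bases before a start of 16 of the 32 interferon-stimulated genes with a RefSeq promoter (50%, against 3.46% of all genes in the reference). Genes with it had a median log2 fold change of -0.74 and those without -0.61, and 4 of the 16 with it and 3 of the 16 without were lower without overlap. The 4 that held it and did not overlap are printed with the match in capitals, as the reference shows what these promoters share: Ifit1 (chr19:34640639-34640888, plus strand), Oas3 (chr5:120777660-120777909, minus strand), Irgm1 (chr11:48871421-48871670, minus strand) and Gbp7 (chr3:142530086-142530335, plus strand).
Ifit1: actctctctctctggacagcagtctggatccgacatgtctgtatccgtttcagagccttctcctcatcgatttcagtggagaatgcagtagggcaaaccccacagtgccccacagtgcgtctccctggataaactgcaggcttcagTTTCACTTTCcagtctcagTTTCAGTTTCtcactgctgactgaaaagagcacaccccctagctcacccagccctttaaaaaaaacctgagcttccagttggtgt
Oas3: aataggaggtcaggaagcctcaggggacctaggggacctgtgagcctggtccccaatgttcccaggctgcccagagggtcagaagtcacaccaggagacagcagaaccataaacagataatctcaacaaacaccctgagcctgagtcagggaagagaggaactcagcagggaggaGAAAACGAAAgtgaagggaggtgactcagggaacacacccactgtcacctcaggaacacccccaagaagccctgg
Irgm1: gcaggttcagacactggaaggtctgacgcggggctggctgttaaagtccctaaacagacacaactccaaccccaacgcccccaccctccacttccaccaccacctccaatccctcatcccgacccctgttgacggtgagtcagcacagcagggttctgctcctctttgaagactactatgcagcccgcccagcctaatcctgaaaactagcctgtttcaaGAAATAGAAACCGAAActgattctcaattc
Gbp7: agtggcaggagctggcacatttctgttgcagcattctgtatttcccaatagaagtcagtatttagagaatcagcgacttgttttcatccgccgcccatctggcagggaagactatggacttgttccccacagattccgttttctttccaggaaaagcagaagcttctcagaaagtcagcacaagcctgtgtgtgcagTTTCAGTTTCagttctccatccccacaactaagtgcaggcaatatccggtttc

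The first match lay 104 bases before the start of Ifit1, 75 before that of Oas3, 30 before that of Irgm1 and 53 before that of Gbp7, and Ifit1 and Irgm1 held 2 matches each, those of Irgm1 overlapping. Irgm1, an immunity-related GTPase, had a log2 fold change of -1.40 (SE 0.49, adjusted p = 0.44), and Gbp7, a guanylate-binding protein, had a log2 fold change of -1.36 (SE 0.49, adjusted p = 0.44). Both genes were chosen for display after their values were seen.

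Antigen presentation did not follow the interferon genes as a group. Of 22 genes of MHC class I presentation, 12 were higher and 10 lower (median 0.03). B2m, the light chain that all class I molecules share, had normalized counts of 462, 550.5, 301 and 357 in WT and 99.7, 155, 140.3 and 214 in IL-6 KO libraries (log2 fold change -1.46, SE 0.37, adjusted p = 0.324), without overlap and lower in IL-6 KO. H2-D1, a classical heavy chain, had normalized counts of 1613, 2263, 2349 and 2188 in WT and 3567, 4697, 2539.5 and 3629.9 in IL-6 KO libraries (log2 fold change 0.76, SE 0.29, adjusted p = 0.465), without overlap and higher, and H2-K1 had a log2 fold change of 0.72 (SE 0.32, adjusted p = 0.535). H2-T24, a non-classical heavy chain, had normalized counts of 936, 1076, 798 and 1125 in WT and 371, 349, 482 and 450.0 in IL-6 KO libraries (log2 fold change -1.25, SE 0.29, adjusted p = 0.302), lower without overlap. In tumor B2m had a log2 fold change of -0.46 (SE 0.08, adjusted p = 0.00601). Cd274, which encodes PD-L1, had normalized counts of 68, 70.1, 99.5 and 60.9 in WT and 56.6, 85.8, 37.6 and 101 in IL-6 KO libraries (log2 fold change -0.16, SE 0.49, adjusted p = 0.951), and the 10 checkpoint and costimulation genes tested had a median of 0.00, with none at an unadjusted p under 0.05.

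Target genes of IL-6 and STAT3 were not lower in hosts that lacked IL-6. Of 35 tested, 28 were higher in IL-6 KO (median 0.58), 6 at an unadjusted p under 0.05 (background 3.95%) and 2 without overlap (background 2.54%). Another 1 was lower at that p (background 5.2%). The mean log2 value was 6.60, 7.17, 7.59 and 7.50 in WT and 7.78, 8.01, 6.95 and 8.50 in IL-6 KO libraries. As for the neutrophil genes, IL-6 KO replicate 3 lay inside the WT range and the other three above it, and 8 of the 35 genes are also on a neutrophil list. The median was 0.97 without IL-6 KO replicate 3 and 0.24 without IL-6 KO replicate 4. Without these 8, an alternative chosen after the values were seen, 21 of 27 were higher and the median was 0.64. Socs3, the feedback inhibitor, had normalized counts of 13.5, 85.5, 20.9 and 55.2 in WT and 228, 114, 57.5 and 491 in IL-6 KO libraries (log2 fold change 2.24, SE 0.74, adjusted p = 0.432), with IL-6 KO replicate 3 inside the WT range. Stat3 itself had normalized counts of 219, 348, 402 and 605 in WT and 585, 871, 315 and 752 in IL-6 KO libraries (log2 fold change 0.67, SE 0.41, adjusted p = 0.635). Mcl1, an inhibitor of cell death, had normalized counts of 866, 1014, 1009 and 1531 in WT and 2434, 3030.3, 1635 and 4288 in IL-6 KO libraries (log2 fold change 1.31, SE 0.34, adjusted p = 0.324), without overlap. Fgl2, a fibrinogen-like protein, had a log2 fold change of 1.04 (SE 0.39, adjusted p = 0.46). A STAT site core, TTCNNNGAA on either strand, stood before a start of 5 of the 30 genes of this list with a RefSeq promoter (16.7%, against 8.13% of all genes), with a median log2 fold change of 1.04 in these and 0.58 in the others.

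Immediate early genes had a median of 0.48, with 18 of 25 higher, 3 at an unadjusted p under 0.05 (background 3.95%) and 1 lower at that p (background 5.2%). The median was 0.23 without IL-6 KO replicate 4 and 0.75 without IL-6 KO replicate 3. Jund, an AP-1 subunit, had normalized counts of 642, 772, 809 and 817 in WT and 1763, 1541, 1433 and 1419 in IL-6 KO libraries (log2 fold change 1.02, SE 0.27, adjusted p = 0.324), without overlap, and Fos, another subunit, had normalized counts of 147, 174, 223 and 329 in WT and 849.8, 714, 141 and 702 in IL-6 KO libraries (log2 fold change 1.25, SE 0.54, adjusted p = 0.518), with IL-6 KO replicate 3 below the WT range. Ier5 had a log2 fold change of 0.82 (SE 0.29, adjusted p = 0.44). Btg2, an antiproliferative gene of the same list, was lower without overlap, with normalized counts of 1403, 1720.1, 1200.5 and 1507 in WT and 561, 844, 976 and 971 in IL-6 KO libraries (log2 fold change -0.82, SE 0.29, adjusted p = 0.44). TNF and NF-kB target genes had a median of 0.20, with 20 of 30 higher and 2 at an unadjusted p under 0.05 (6.67% of the list, against 9.15% of all genes). That median was 0.01 without WT replicate 1 and 0.49 without IL-6 KO replicate 3. Stress response genes had a median of -0.13, and Xbp1, a factor of the unfolded protein response, had normalized counts of 196, 313, 433 and 425 in WT and 664, 854, 458 and 616 in IL-6 KO libraries without overlap (log2 fold change 0.95, SE 0.36, adjusted p = 0.461).

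All 15 mitochondrially encoded genes were lower in IL-6 KO stroma (median -1.67), 9 at an unadjusted p under 0.05 (background 5.2%) and 3 without overlap (background 3.25%). The mitochondrial genome encodes core subunits of the respiratory chain and the rRNAs of its own ribosome. The mean log2 value was 12.18, 12.01, 12.36 and 12.79 in WT and 9.17, 11.36, 9.86 and 12.56 in IL-6 KO libraries. IL-6 KO replicates 1 and 3 were lowest, replicate 2 was below every WT library, and replicate 4 lay within the WT range. The median was -1.17 without IL-6 KO replicate 3 and -2.26 without IL-6 KO replicate 4. mt-Co3, a subunit of cytochrome oxidase, had normalized counts of 9226, 9059.8, 17213 and 17616 in WT and 1679, 6848, 1816 and 6728 in IL-6 KO libraries (log2 fold change -1.87, SE 0.50, adjusted p = 0.324), and mt-Atp6, of the ATP synthase, had normalized counts of 13682, 13725, 17328 and 20036 in WT and 2564, 7736, 1888 and 13346 in IL-6 KO libraries (log2 fold change -1.76, SE 0.53, adjusted p = 0.406), both without overlap. mt-Nd2, of complex I, had normalized counts of 3124, 2638, 3055 and 3944 in WT and 399, 1017, 321 and 2772 in IL-6 KO libraries (log2 fold change -2.02, SE 0.55, adjusted p = 0.324). The 55 nuclear genes of the same chain had a median of -0.04, with 25 higher and 30 lower. In tumor, 14 of 15 mitochondrially encoded genes were lower at an adjusted p under 0.05 (median -1.36), against 9.16% of all genes tested in tumor. Rn7s1 shares were highest in the 3 IL-6 KO libraries in which the mitochondrial list was below WT, and whether one moved with the other for a technical reason was not tested.

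Ribosomal protein genes showed no common direction, with 36 of 75 higher and 39 lower (median -0.07). Rps24, of the small subunit, had normalized counts of 651, 767, 1119 and 1109 in WT and 311, 567, 395 and 554 in IL-6 KO libraries (log2 fold change -1.0, SE 0.33, adjusted p = 0.432), lower without overlap, and has near-identical copies in the table. Glycolysis and hypoxia genes had a median of 0.37, with 21 of 26 higher and none at an unadjusted p under 0.05, and it was 0.22 without IL-6 KO replicate 4. Its members with the smallest p were Tpi1, triosephosphate isomerase (log2 fold change 1.11, SE 0.56, adjusted p = 0.57), and Pgk1, phosphoglycerate kinase (log2 fold change 0.95, SE 0.50, adjusted p = 0.582).

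**Figure D4:**
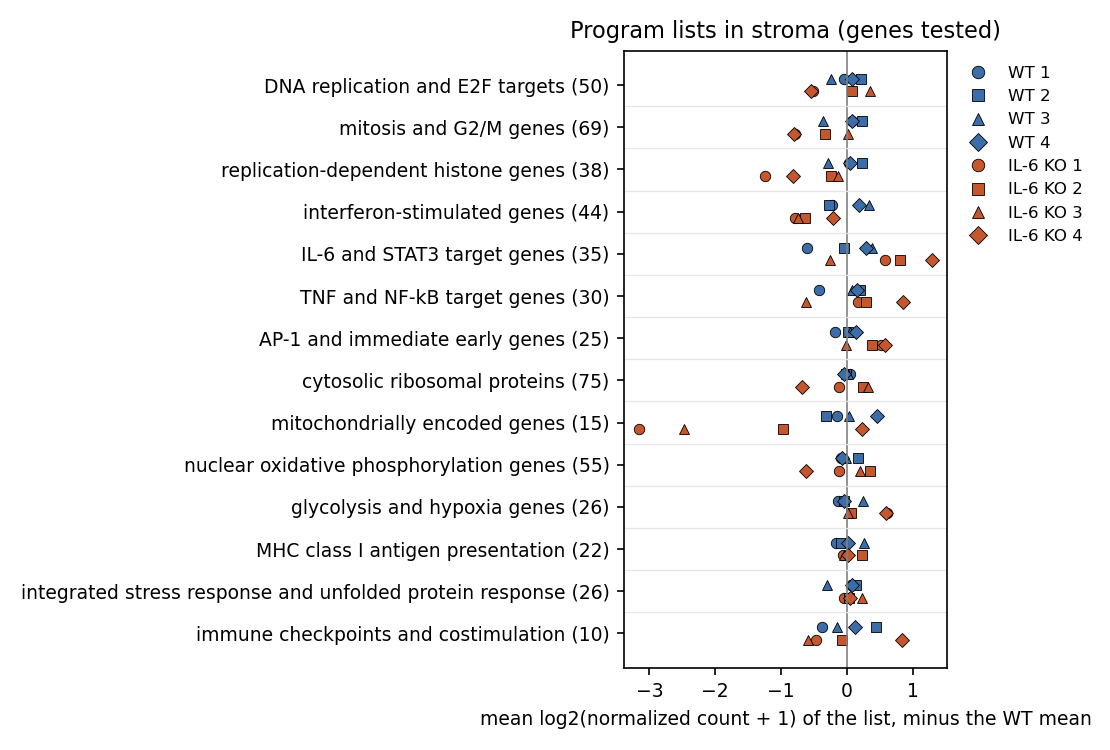
Each point is 1 stroma library's mean of log2(normalized count + 1) over the tested genes of a program list (number in brackets), minus the mean of the 4 WT libraries. The interferon-stimulated and mitochondrially encoded lists were lowest in IL-6 KO replicates 1 to 3, and the mitosis and histone lists in IL-6 KO replicates 1 and 4.

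Outside the lists, the protein-coding genes with the smallest p were mixed in kind. Hes5, a repressor that Notch signalling induces, was the nearest to the threshold, with normalized counts of 512, 261, 745 and 538 in WT and 58.4, 44.9, 79.7 and 20 in IL-6 KO libraries. The log2 fold change was -3.38 (SE 0.50, limma adjusted p = 0.0933), and the genotypes did not overlap. In tumor it had normalized counts of 187, 180.2, 130.3 and 172 in WT and 166, 182, 142 and 164 in IL-6 KO libraries (log2 fold change -0.03, SE 0.16, adjusted p = 0.928). Lower without overlap were also C530008M17Rik with normalized counts of 632, 675, 649 and 747 in WT and 93.2, 163, 365 and 177 in IL-6 KO libraries (log2 fold change -1.92, SE 0.40, adjusted p = 0.297), Abcb4, a phospholipid transporter (log2 fold change -1.66, SE 0.38, adjusted p = 0.302), Mns1, a protein of cilia and flagella (log2 fold change -1.64, SE 0.36, adjusted p = 0.298), and Gid8, a subunit of a ubiquitin ligase (log2 fold change -1.67, SE 0.39, adjusted p = 0.302).

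On the higher side, Ncf4, the p40 subunit of the phagocyte NADPH oxidase, had normalized counts of 278, 289, 287 and 311 in WT and 961, 1214, 647 and 1006 in IL-6 KO libraries. That is a log2 fold change of 1.68 (SE 0.30, limma adjusted p = 0.297). Its WT libraries were nearly equal, and IL-6 KO replicate 3 was the lowest of its group yet still above them all. Gmip, a GTPase-activating protein, had normalized counts of 422, 501, 1047 and 1300.3 in WT and 3809, 3304, 2456 and 2317 in IL-6 KO libraries (log2 fold change 1.99, SE 0.39, adjusted p = 0.297), and Rab44, a large Rab GTPase, had normalized counts of 952, 1093, 2111 and 2013 in WT and 8518, 4361, 3466 and 3416 in IL-6 KO libraries (log2 fold change 1.66, SE 0.38, adjusted p = 0.302). Dnajc1, a cochaperone of the endoplasmic reticulum, had normalized counts of 82.8, 70.3, 35 and 83.1 in WT and 287, 269.7, 244 and 411 in IL-6 KO libraries (log2 fold change 2.19, SE 0.42, adjusted p = 0.297). Plxnd1, a semaphorin receptor, had a log2 fold change of 1.96 (SE 0.43, adjusted p = 0.298), Itpk1, an inositol phosphate kinase, had a log2 fold change of 2.07 (SE 0.47, adjusted p = 0.302), and Kif13a, a kinesin, had a log2 fold change of 2.78 (SE 0.61, adjusted p = 0.298). Socs6, of the family of cytokine signalling suppressors, had normalized counts of 12.7, 30, 10 and 11.4 in WT and 209.9, 80, 149 and 50.8 in IL-6 KO libraries (log2 fold change 2.79, SE 0.65, adjusted p = 0.302). With means of 16.0 in WT and 122 in IL-6 KO, Socs6 met the mean of 50 set for naming only through IL-6 KO libraries. A gene this low in WT could be named here only if it was higher in IL-6 KO, so the rule fixed its direction. Rnaset2a, a lysosomal ribonuclease with a near-identical copy, had a log2 fold change of 1.76 (SE 0.36, adjusted p = 0.297).

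Srp54a and Srp54b, near-identical genes for the GTPase of the signal recognition particle, differed in opposite directions. With means of 24.5 in WT and 386 in IL-6 KO, Srp54b reached the mean of 50 set for naming only through IL-6 KO libraries. Srp54b had normalized counts of 0, 0, 97.8 and 0 in WT and 113, 482, 755 and 193 in IL-6 KO libraries (log2 fold change 6.57, SE 1.34, adjusted p = 0.297) and Srp54a normalized counts of 315, 327, 325 and 277 in WT and 59.2, 164, 26.4 and 73.8 in IL-6 KO libraries (log2 fold change -2.21, SE 0.51, adjusted p = 0.302), and Srp54c had normalized counts of 133, 201, 114 and 190.4 in WT and 0, 151, 0 and 259.8 in IL-6 KO libraries. Summed over the 3 genes, normalized counts were 448, 528, 537 and 467 in WT and 172, 797, 781 and 526 in IL-6 KO libraries, averaging 495 ± 44.1 in WT and 569 ± 292 in IL-6 KO (mean ± SD, n = 4 each), so the family as a whole differed by less than the spread between libraries.

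**Figure D5:**
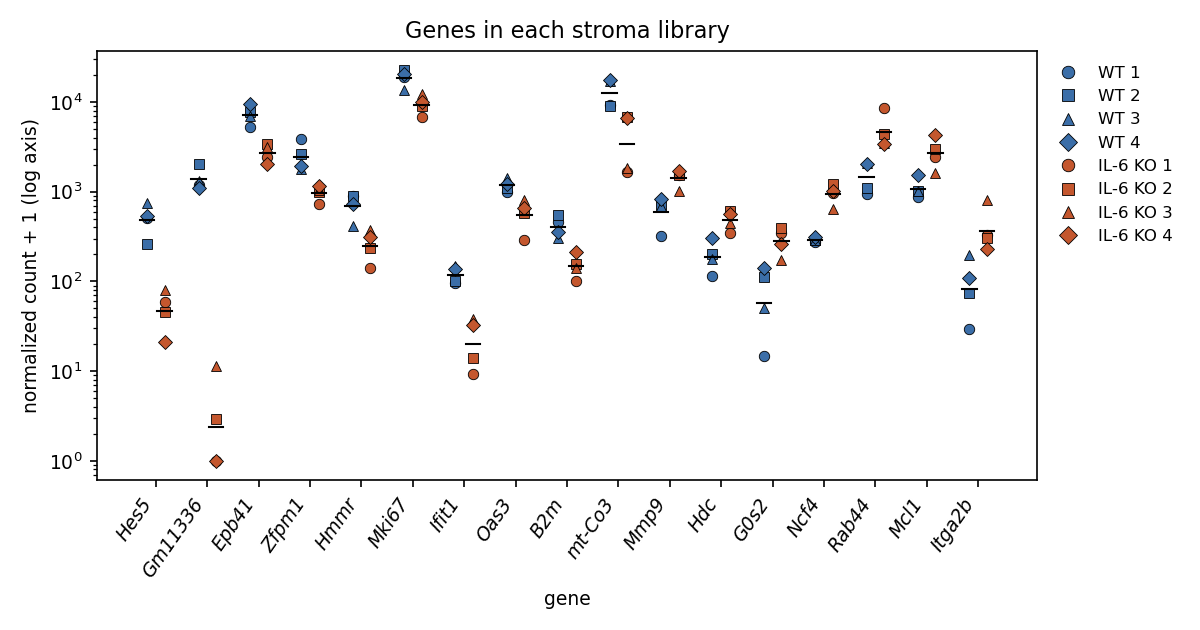
Normalized counts + 1 (log axis) of 17 genes described above in each stroma library, with bars at the geometric mean of each genotype. Epb41, Hmmr, Ifit1 and B2m were lower and Ncf4, Mmp9, Hdc and Mcl1 higher in IL-6 KO in every library, and Gm11336 is the only one of them with an adjusted p under 0.05.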

How the data were processed

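RNA from sorted mCherry- marrow cells was prepared by the authors with depletion of rRNA and a strand-marking kit, and sequenced in single reads of 75 nt. Per the labels and the study's methods, salmon 1.3.0, set to correct GC and sequence bias, quantified transcripts against mm10, and DESeq2 1.28.1 scaled the counts. The table the authors deposited holds normalized counts, a scaled signal from estimated counts and not whole reads. Reads could not be recovered, so depth per library is unknown, and precision therefore rests on the 4 libraries per genotype. Each sample title names a fraction, a genotype and a replicate number. Whether each library came from its own mouse is not stated, and p-values measure the spread between libraries. The authors' own results of the comparison (means, log2 fold changes, test scores and p-values) were deposited too and not used.

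Genes with a mean over 10 were tested with limma 3.58.1 (R 4.3.3) on log2(normalized count + 1), with variances that follow the mean, genotype as the only term, two-sided, Benjamini-Hochberg adjustment over 12202 genes and a threshold of 0.05. Tumor was fitted alone in the same way, because the tables were scaled separately. The pseudocount understates fold changes of low genes. Of 13344 identifiers 13338 were found in GENCODE vM21 (GRCm38), which gave names, positions and lengths. The fit was tried on simulated data first. The 32 lists (16 of lineages, 16 of programs, 898 genes, 741 tested) came from general knowledge, and members and lists were chosen with earlier results of these data known, so they carry counts and medians and no test. Where 2 identifiers shared a symbol, the one with the larger mean was used. Named were genes with an adjusted p under 0.05, the 10 protein-coding genes per direction with the smallest p, means of 50 or more and genotypes that do not overlap, the first 3 members of each list and the 3 further members with the smallest p, sex-linked genes, and the 5 RNAs with the largest share of a library. Values of some genes that this rule names are not reported here. Near-identical copies came from BLAST 2.17.0. Promoter letters are RefSeq's (GRCm38.p6, 32851 starts of 27025 genes). Biopython 1.88, Python 3.11.15, pandas 2.3.3 and matplotlib 3.10.9 were used for the alignment, tables and figures. Alternatives were pseudocounts of 0.5 and 5, a mean over 50, no filter, median centring, quantile normalization, array weights, a block for the replicate number, removal of the trend with GC content and length (loess span 0.3), and each library left out.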

Additional observations from a re-analysis of the deposited data

Results flagged for a closer look

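In groups of 4 libraries, 74 sets of values (the lists and the most abundant RNAs, per genotype) were examined for 1 library far from the other three, which chance gives in about 1 set of 20, and 4 stood out. WT replicate 1 had the lowest mean log2 value of the monocyte list, 4.98, against 6.04 to 6.19 in the other WT libraries. WT replicate 3 had the lowest mean of the heme synthesis list, 9.76, against 10.24 to 10.33. IL-6 KO replicate 4 had an Rn7s1 share of 10.91%, against 71.46% to 79.03% in the other IL-6 KO libraries, and a CT010467.1 share of 61.51%, against at most 0.0117%. No list had all 4 IL-6 KO stroma libraries above, or all 4 below, every WT library, and differences between stroma and tumor were not tested.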

How the results depend on the processing

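Gm11336 kept an adjusted p under 0.05 under every alternative, with a log2 fold change between -9.91 and -7.59, the latter with a pseudocount of 5. The count of such genes was 1 in most settings, 4 with array weights (with Hes5, Ncf4 and Gm28438), 2 with the GC and length trend removed (with Hes5), and between 1 and 3 with 1 library left out. The replicate numbers did not pair the libraries (correlations of deviations 0.096, 0.048, -0.029 and 0.126), and with the replicate number as a block 1 gene was called and 1103 had an unadjusted p under 0.05, 486 higher and 617 lower. With array weights 1639 genes had an unadjusted p under 0.05. With 1 library left out, that count lay between 742 and 1636, and that of genes without overlap between 915 and 1632. Of the list medians, T and NK cells were at -0.07 with a mean over 50 and MHC class I at 0.20 with array weights, and the other settings with all libraries moved none by more than the spread of its library means. With 1 library left out, the medians ranged from -0.35 to 0.30 for stem and progenitor cells, 0.36 to 1.05 for macrophages, -0.94 to -0.19 for dendritic cells, 0.23 to 0.75 for immediate early genes, -0.27 to 0.09 for stress responses and -0.55 to 0.15 for checkpoints. Direction changed in genes with small differences. Cd274 was at 0.05 with array weights, Csf3r at -0.04 with the GC and length trend removed, Elane at 0.07 with quantile normalization and 0.55 with array weights, and S100a8 at 0.07 with array weights and 0.17 with the GC and length trend removed. With 1 library left out the ranges that held both signs were -0.36 to 0.10 for Cd274, -0.35 to 0.53 for Csf3r, -1.33 to 0.25 for Elane, -0.65 to 0.05 for Gata1, -0.33 to 0.56 for Hbb-bs, -0.80 to 0.05 for Ifit2, -0.23 to 0.64 for Mpo, -0.30 to 0.21 for S100a8 and -0.60 to 0.25 for Slc4a1. The causes of these changes were not tested. Depth per library is unknown, and low genes such as Cd4 or Ms4a3 are limited most by it.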

Other observations

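Genes grouped by their annotated type, a grouping made after the values were seen, differed in direction. Of 215 genes annotated TEC (short stretches awaiting experimental evidence), 170 were lower in IL-6 KO stroma (median log2 fold change -1.10). Of these 47 had an unadjusted p under 0.05 (background 5.2%) and 42 were without overlap (background 3.25%), against 4 and 1 higher. Of 28 sense-intronic RNAs, 22 were lower (median -1.45), 7 at an unadjusted p under 0.05. Mean log2 values of the TEC genes were 4.81, 5.2, 4.38 and 5.02 in WT and 3.19, 4.07, 4.03 and 4.38 in IL-6 KO libraries, so that IL-6 KO replicate 4 met WT replicate 3. For 10812 protein-coding genes the median was 0.00, and for 43 snoRNAs 0.20, with 8 higher and 3 lower at an unadjusted p under 0.05. Processed pseudogenes, many of them copies of abundant genes, had a median of -0.01 over 536 genes. The proportion of unspliced RNA in each library was not measured here.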
